A study of Mus musculus with 9 samples.

Results

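The genes described here are 50 mouse genes that drive or mark the cell division cycle, out of 49326 named gene entries in each count table. They were taken by gene symbol alone and fall into 4 groups by role: 11 genes of G1 and the pocket proteins, 8 genes of the G1/S transition, 14 genes of S phase and DNA replication, and 17 genes of G2 and mitosis. Each symbol matched 1 gene identifier, and all 50 passed the filter on low counts. PolyA+ RNA had been sequenced from mouse embryonic stem cells (day 0) and from embryoid bodies, the aggregates in which such cells start to differentiate, at day 4 and day 8. The wild-type cells gave 1 library per day. The Hnrnpll-/- cells gave 2 libraries per day, 1 carrying the name G6 and 1 carrying the name H8 in the labels, and these names are read here as knockout lines. All groups share stem cell culture in serum with leukemia inhibitory factor, and the day 4 and day 8 groups share body formation in hanging drops. Hnrnpll encodes an RNA-binding protein known as a splicing regulator. Wild type is 1 line with 1 library a day, so genotype and line cannot be told apart, and the labels do not say whether libraries came from separate cultures; p-values measure the spread between these libraries.

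The cell cycle runs on cyclins that switch on cyclin-dependent kinases in turn. D-type cyclins with CDK4 or CDK6 phosphorylate the pocket proteins, which frees E2F factors to transcribe cyclin E, the MCM helicase and other replication genes. Cyclin A and cyclin B with CDK1 then carry the cell through G2 and mitosis, and the inhibitors p27 (Cdkn1b), p16/p19ARF (Cdkn2a) and p15 (Cdkn2b) act as brakes. Mouse embryonic stem cells are known for a short G1 phase with little D-type cyclin activity and steady cyclin E activity, and G1 lengthens as they differentiate.

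The total count per library ran from 54218051 to 184952442, with the day 0 knockout libraries the shallowest. Low counts (up to 40) fell on multiples of 4 in 42.6% to 43.5% of cases in those libraries and in 30.5% to 33.2% in the others; the reason was not tested. The targeted gene was still detected in the knockout libraries. Over days 0, 4 and 8 it measured 77.1, 101 and 112 TPM in wild type, 54.9, 61.2 and 56.5 TPM in G6 and 24.5, 38.6 and 43.5 TPM in H8. Both lines lay below wild type at every day, and the difference over all days was a log2 difference of -1.02 ± 0.23 SE, edgeR adjusted p = 0.0726, which did not pass the threshold. The labels do not say which part of the gene was deleted, so the gene-level value does not check the genotype by itself.

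All 50 genes were expressed in every library, and 44 of them had at least 10 TPM (transcript abundance scaled by gene length and library) throughout. The lowest level was 1.33 TPM, for E2f2 in wild type at day 4, and the highest was 589 TPM, for Mybl2 in H8 at day 0. The lowest count behind any value was 174 (Cdkn2b). Median TPM over the S phase genes in wild type was 236 at day 0, 184 at day 4 and 146 at day 8, while over the G1 genes it was 26.8, 18.3 and 23.7. Of the 50 genes, 24 overlap another annotated gene, among them Ccnd3 (Bysl), Cdk4 (Tspan31), Rb1 (Rcbtb2 and Lpar6) and Mcm7 (Cops6 and Ap4m1). The use of strand in counting is not given in the sources used here, so their counts may hold reads of the partner.

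**Figure D1:**
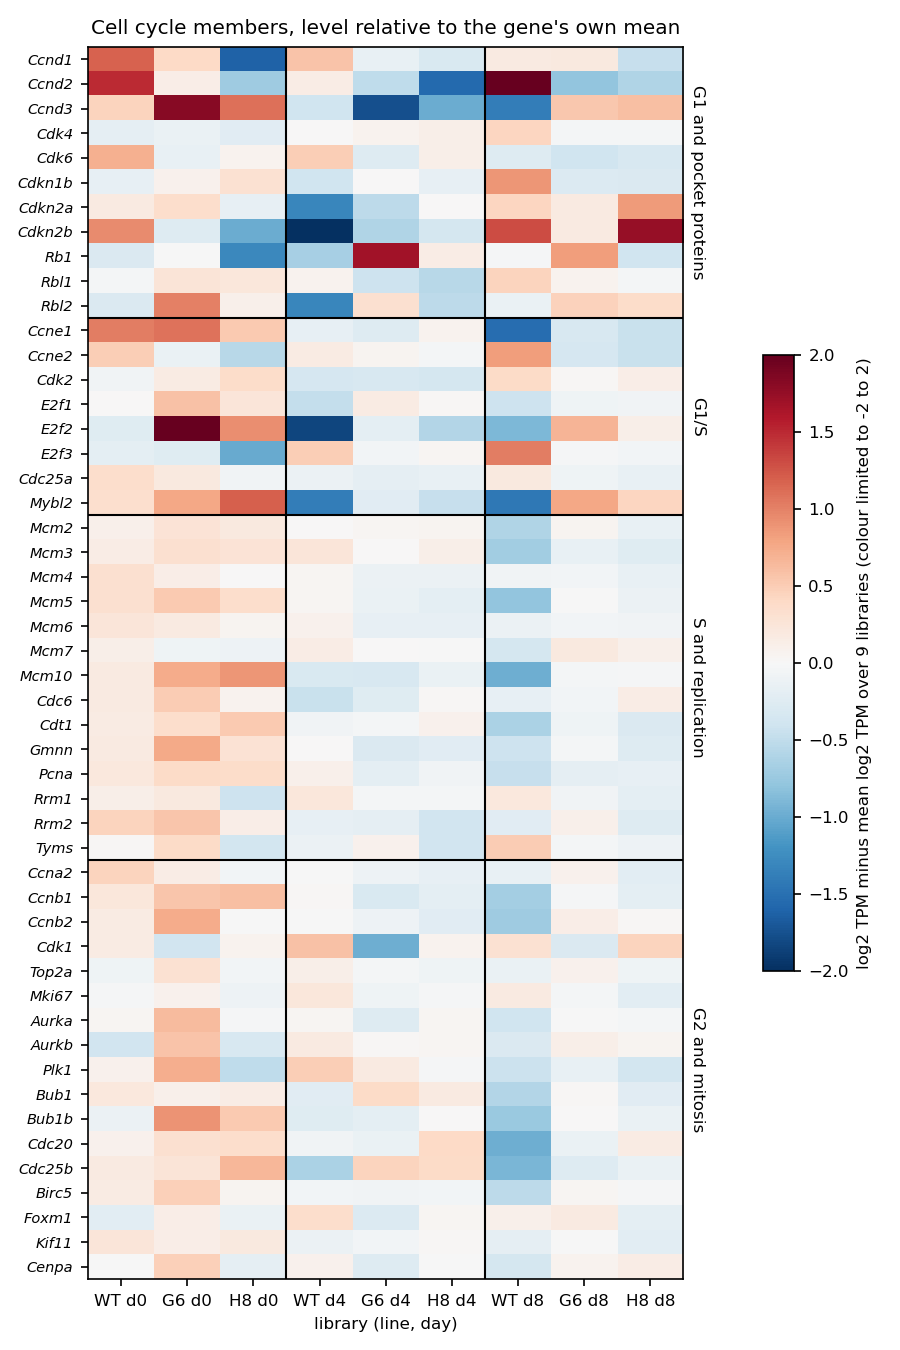
Level of each of the 50 genes (rows, grouped by role) in each of the 9 libraries (columns, WT = wild type, d = day), as log2 TPM minus the gene's own mean over the 9 libraries, with the colour scale limited to -2 to 2. Wild type at day 8 lies below the gene mean (blue) for most S phase and mitotic genes, and Ccnd2, E2f2, Cdkn2b and Ccnd3 have the widest ranges.

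Knockout and wild type differed most clearly at day 8. Tested with edgeR's quasi-likelihood F test over 24794 genes, with Benjamini-Hochberg adjustment and a threshold of 0.05, 8 of the 50 genes passed at day 8, against 9.87% of all genes tested. The 5 that were higher in the knockout were the cyclins Ccnd3 and Ccne1, the transcription factor Mybl2 and the helicase subunits Mcm5 and Mcm7 (5.01% of all genes were called higher). The 3 that were lower were Ccnd2, Ccne2 and the inhibitor Cdkn1b (4.86% of all genes were called lower). At an unadjusted p under 0.05 there were 22 of 50, against 7354 of the 24794 genes. Scaling by total count called 10 higher and 3 lower. These calls need nearly every embryoid body library of the knockout: without G6 at day 4, H8 at day 4 or G6 at day 8 the count fell to 0, and without H8 at day 8 only Mybl2 passed, while without G6 or H8 at day 0 it was 16 and 15. With the knockout line as a term (replicate block), Ccnd3 no longer passed (adjusted p = 0.0517 with edgeR), and Cdc20 (log2 difference 1.12) and Mcm10 (0.96) did. The shares of all genes called under total count scaling, without single libraries and with the replicate block are not given here. Those counts therefore show dependence on processing only.

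At day 0 no gene of the 50 passed with edgeR, against 5.43% of all genes (1.11% higher, 4.33% lower), and 6 had an unadjusted p under 0.05, beside 6038 of the 24794 genes. DESeq2 called 5 of the 50 and 3692 of all genes, and limma-voom called 1 and 946. With the replicate block 3 passed with edgeR: Ccnd2 (log2 difference -1.91, adjusted p = 0.0452), the G1 kinase gene Cdk6 (-1.53, adjusted p = 0.0387) and E2f2 (1.73, adjusted p = 0.0401). At day 4 no gene passed with edgeR, DESeq2 or limma-voom, against 0.00807% of all genes with edgeR, and 10 had an unadjusted p under 0.05, beside 3352 of all genes. Over all days, in a model of day and genotype, Ccnd2 alone passed (lower in the knockout), against 0.597% of all genes called lower and 0.984% called either way; 11 had an unadjusted p under 0.05, beside 4877 of all genes. That call was lost on log2(TPM + 1), without wild type at day 0 or day 8, and without any 1 of the 6 knockout libraries.

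Along the knockout course, from day 0 to day 4, 9 of the 50 genes passed as lower and none as higher. Of all genes 5.16% were called lower and 9.56% higher. Called or not, 20% of the 50 genes had a difference above 0, beside 53.0% of all genes tested. The 9 that passed were Ccnd3, Ccne1, Cdk2, E2f2, Mybl2, Mcm5, Gmnn, Ccnb1 and Bub1b. Falls in G6 were wider than in H8 for Ccne1 (-1.34 against -0.48), Gmnn (-1.06 against -0.53) and Bub1b (-1.03 against -0.51). Those of Cdk2 (-0.48 against -0.74) and Mybl2 (-0.98 against -1.71) went the other way. The calls of Ccne1, Gmnn and Bub1b were lost without G6 at day 0, and that of Cdk2 without H8 at day 0. Without G6 or without H8 at day 4 only Ccnd3 passed, and without G6 or without H8 at day 8 there were 4. From day 4 to day 8 none passed with edgeR (0.311% of all genes did; 7 of the 50 and 3283 of all genes had an unadjusted p under 0.05; DESeq2 called 3 and 1573, limma-voom 1 and 408). From day 0 to day 8 Ccne1 and Ccnb1 passed as lower, against 1.97% of all genes lower, 5.92% higher and 7.90% either way. Both of those calls were lost without G6 or H8 at day 4 or at day 8 and without G6 at day 0, that of Ccnb1 also without H8 at day 0; without wild type at day 4 Ccne1 alone passed.

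The D-type cyclins moved apart from each other. Ccnd2 measured 38.2, 15.1 and 71.9 TPM across the wild-type days 0, 4 and 8, 15.0, 9.58 and 7.85 TPM in G6 and 8.29, 4.62 and 8.97 TPM in H8. Both knockout lines were below wild type at each day, and the gap was widest at day 8, where wild type was at its highest. There the knockout was 8.67-fold lower (log2 difference -3.12 ± 0.45 SE, edgeR adjusted p = 0.0230), and over all days the difference was (log2) -2.14 ± 0.36 SE, edgeR adjusted p = 0.0437. TPM of Ccnd3 over day 0, 4 and 8 was 82.3, 45.7 and 23.2 in wild type, 214, 17.8 and 87.6 in G6 and 130, 30.4 and 91.4 in H8. Ccnd3 was above wild type in both lines at day 0, below it in both at day 4 and above it in both at day 8. The knockout was 5.43-fold higher at day 8 (log2 difference 2.44 ± 0.54 SE, edgeR adjusted p = 0.0449) and fell 8.87-fold from day 0 to day 4 (log2 difference -3.15 ± 0.42 SE, edgeR adjusted p = 0.00853). Of the 20 calls on these genes, the fall of Ccnd3 was the one that kept its side of the threshold under all 17 alternatives tried.

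Ccnd1 measured 124, 81.5 and 62.2 TPM across the wild-type days 0, 4 and 8, 72.2, 49.7 and 62.5 TPM in G6 and 17.8, 44.3 and 40.01 TPM in H8. At day 0 H8 was the lowest of the 9 libraries and G6 lay between it and wild type, and no comparison of Ccnd1 passed the threshold (over all days log2 difference -0.88 ± 0.39 SE, edgeR adjusted p = 0.263). As a share of the summed TPM of the 3 D-type cyclins, Ccnd3 made up 33.7%, 32.1% and 14.7% in wild type at day 0, 4 and 8, 71.0%, 23.1% and 55.4% in G6, and 83.2%, 38.3% and 65.1% in H8. Ccnd2 made up 45.7% in wild type at day 8, against 4.97% in G6 and 6.39% in H8. The sum itself at day 8 was close in the 3 libraries, at 157 TPM in wild type, 158 in G6 and 140 in H8. The Ccnd1 share there was 39.5% in wild type, 39.6% in G6 and 28.5% in H8. Fibroblast markers (Col1a1, Col1a2, Lum and Postn), which would mark feeder or mesenchymal cells, summed to 144 TPM in wild type at day 0 against 102 in G6 and 52.6 in H8, and to 535 TPM in wild type at day 8 against 6.20 and 33.8, with Lum at 0 in every knockout library but H8 at day 8. Their part in the Ccnd1 and Ccnd2 values was not tested.

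**Figure D2:**
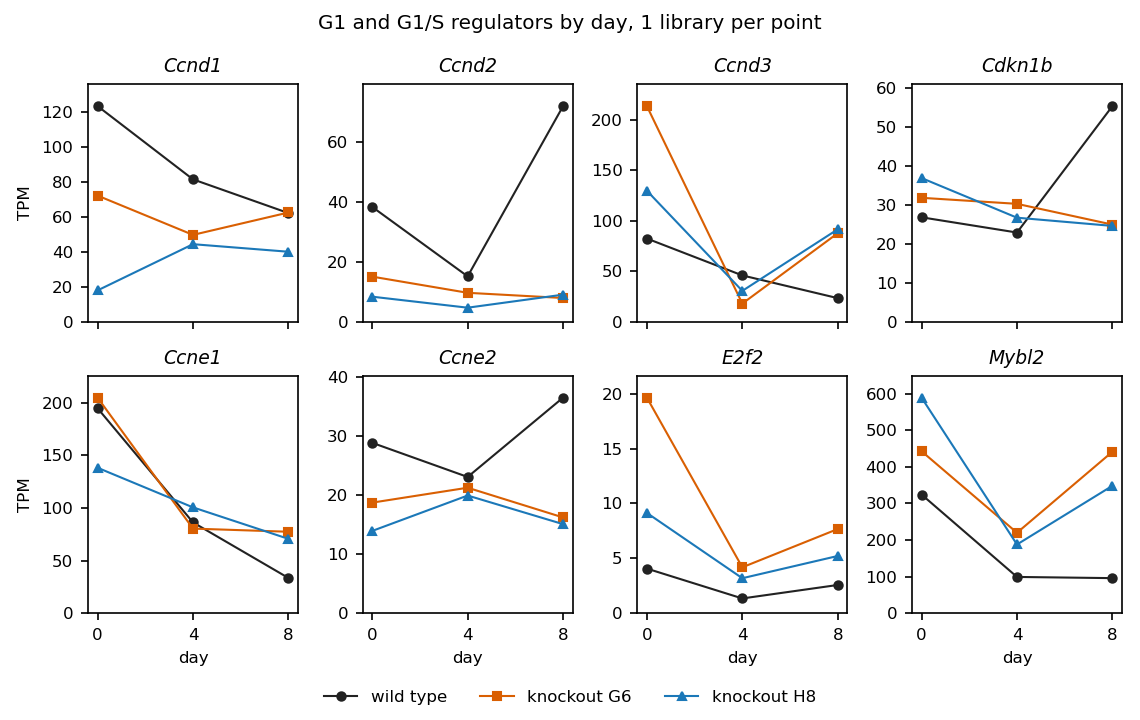
TPM (y axis, from 0) against day (x axis) for 8 G1 and G1/S regulators, 1 library per point, with lines joining libraries of 1 line. Ccnd2, Cdkn1b and Ccne2 have their highest point in wild type at day 8, while Ccnd3, Ccne1 and Mybl2 are lower there in wild type than in both knockout lines.

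Of the D-cyclin partner kinases, Cdk4 was abundant, between 330 and 521 TPM, and its highest value was wild type at day 8, against 377 TPM in each knockout line. TPM of Cdk6 over day 0, 4 and 8 was 21.9, 18.8 and 11.2 in wild type, 12.1, 11.2 and 10.1 in G6 and 14.0, 14.5 and 10.8 in H8. Cdk6 was below wild type in both lines at each day, with a difference over all days of (log2) -1.02 ± 0.23 SE, edgeR adjusted p = 0.0711. Neither kinase gene passed in any of the 10 comparisons, apart from Cdk6 at day 0 with the replicate block.

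Of the inhibitor genes Cdkn1b, Cdkn2a and Cdkn2b, only Cdkn1b passed in the 10 comparisons. Cdkn1b measured 26.8, 22.9 and 55.5 TPM across the wild-type days 0, 4 and 8, 31.9, 30.3 and 25.0 TPM in G6 and 36.9, 26.7 and 24.6 TPM in H8. Wild type was the lowest of the 3 libraries at day 0 and day 4 and the highest at day 8, while the knockout lines stayed between 24.6 and 36.9 TPM. At day 8 the knockout was 2.05-fold lower (log2 difference -1.03 ± 0.18 SE, edgeR adjusted p = 0.0284). A wild-type peak at day 8 was not particular to Cdkn1b. Cdkn1c, an inhibitor gene of the wider G1 and checkpoint list, was at 195 TPM there against 26.8 in G6 and 43.9 in H8, and was not called. TPM of Cdkn2a over day 0, 4 and 8 was 36.9, 13.2 and 44.3 in wild type, 41.7, 22.7 and 36.9 in G6 and 29.3, 32.9 and 59.0 in H8. Cdkn2b measured 14.3, 1.85 and 18.4 TPM across the wild-type days 0, 4 and 8, 6.24, 4.92 and 8.43 TPM in G6 and 3.74, 5.84 and 24.9 TPM in H8. Both genes of this locus, which share a locus but encode different inhibitors, were lowest in wild type at day 4, where both knockout lines were above it. At day 8 H8 was above wild type and G6 below it for both, so the lines straddled wild type, and no comparison of either gene passed.

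The pocket protein genes gave no call in the 10 comparisons; with the replicate block Rb1 passed as higher at day 4 than at day 0 in the knockout (log2 difference 1.23, edgeR adjusted p = 0.0137). Rb1 measured 16.4, 12.7 and 19.8 TPM across the wild-type days 0, 4 and 8, 20.0, 64.3 and 35.8 TPM in G6 and 8.25, 22.2 and 15.2 TPM in H8. TPM of Rbl1 over day 0, 4 and 8 was 17.1, 18.3 and 23.7 in wild type, 20.9, 13.2 and 18.3 in G6 and 20.4, 11.9 and 17.0 in H8. Rbl2 measured 5.16, 2.56 and 5.77 TPM across the wild-type days 0, 4 and 8, 12.7, 7.91 and 8.66 TPM in G6 and 6.77, 4.39 and 8.18 TPM in H8. Rbl2, which encodes p130, was above wild type in both knockout lines at each day (over all days log2 difference 0.94 ± 0.27 SE, edgeR adjusted p = 0.115), and Rbl1, which encodes p107, was above it at day 0 and below it at day 4 and day 8. Rb1 was higher in G6 than in H8 at every day, 20.0 against 8.25, 64.3 against 22.2 and 35.8 against 15.2 TPM. In the comparison of the lines over the 6 knockout libraries, Rb1 had the largest difference of the 50 genes (H8 minus G6 log2 difference -1.31 ± 0.14 SE, edgeR adjusted p = 0.116), and it passed without the day 0 libraries (log2 difference -1.41, adjusted p = 0.0365 with edgeR), an alternative chosen after seeing the data. Leaving out either day 0 library alone gave adjusted p = 0.0402 (without G6) and 0.0388 (without H8) with edgeR, but the day 0 library that is left adds nothing to the line difference, so these fits rest on the same 4 libraries. With all 6 libraries no gene of the 50 passed that comparison with edgeR, against 0.00403% of all genes; 7 had an unadjusted p under 0.05, beside 2172 of all genes. DESeq2 called 2 of the 50 and 806 of all genes, and limma-voom none and 12.

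Among the G1/S genes, Mybl2 and E2f2 lay above wild type in both knockout lines at each day, as did E2f1. Mybl2 measured 324, 98.8 and 95.6 TPM across the wild-type days 0, 4 and 8, 443, 220 and 441 TPM in G6 and 589, 188 and 348 TPM in H8. Mybl2, which encodes B-Myb, an activator of late S and G2/M genes, was above wild type in both lines at all 3 days. Of all genes above 0 in the 3 libraries of a day, 37.3%, 42.5% and 43.2% had both lines above wild type at day 0, 4 and 8. Mybl2 was 4.68-fold higher in the knockout at day 8 (log2 difference 2.23 ± 0.30 SE, edgeR adjusted p = 0.0211). In the knockout it fell from day 0 to day 4 (log2 difference -1.37 ± 0.23 SE, edgeR adjusted p = 0.0157). Its differences from wild type at day 0, at day 4 and over all days did not pass with edgeR. TPM of E2f2 over day 0, 4 and 8 was 4.06, 1.33 and 2.57 in wild type, 19.7, 4.18 and 7.67 in G6 and 9.14, 3.18 and 5.21 in H8. E2f2, an activator E2F, was also above wild type in both lines at each day, at the lowest levels of the group. Its difference over all days was (log2) 1.40 ± 0.27 SE, edgeR adjusted p = 0.0549, which did not pass, while its fall from day 0 to day 4 in the knockout did (log2 difference -2.09 ± 0.36 SE, edgeR adjusted p = 0.0174).

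The 2 cyclin E genes differed between the genotypes in opposite directions at day 8. Ccne1 measured 195, 86.3 and 33.4 TPM across the wild-type days 0, 4 and 8, 205, 80.4 and 77.4 TPM in G6 and 138, 101 and 70.6 TPM in H8. TPM of Ccne2 over day 0, 4 and 8 was 28.9, 23.1 and 36.5 in wild type, 18.7, 21.3 and 16.2 in G6 and 13.9, 19.9 and 15.1 in H8. At day 8 Ccne1 was higher in the knockout (log2 difference 1.28 ± 0.28 SE, edgeR adjusted p = 0.0439) and Ccne2 was lower (log2 difference -1.19 ± 0.23 SE, edgeR adjusted p = 0.0332); the Ccne1 call was lost on log2(TPM + 1) and on log2(TPM + 0.1). The ratio of Ccne1 to Ccne2 TPM was 0.914 in wild type at day 8, against 4.77 in G6 and 4.68 in H8. At day 0 it was 6.75 in wild type, 10.9 in G6 and 9.93 in H8, and at day 4 it was 3.74, 3.78 and 5.05. Both lines were thus above wild type at each day, and the relative gap was widest at day 8. In the knockout Ccne1 fell from day 0 to day 4 (log2 difference -0.92 ± 0.22 SE, edgeR adjusted p = 0.0421) and from day 0 to day 8 (log2 difference -1.21 ± 0.22 SE, edgeR adjusted p = 0.0291); the first of these did not pass under total count scaling or with the replicate block (adjusted p = 0.0559 with edgeR).

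Cdk2 measured 70.4, 58.0 and 96.4 TPM across the wild-type days 0, 4 and 8, 82.7, 59.2 and 75.2 TPM in G6 and 94.5, 57.5 and 80.7 TPM in H8. Cdk2, the partner of cyclin E, fell in the knockout from day 0 to day 4 (log2 difference -0.62 ± 0.15 SE, edgeR adjusted p = 0.0461), a call lost under total count scaling and without the filter, and its 3 libraries of day 4 lay within 57.5 to 59.2 TPM. TPM of E2f3 over day 0, 4 and 8 was 20.9, 33.5 and 48.6 in wild type, 20.2, 23.1 and 23.6 in G6 and 11.9, 24.6 and 23.1 in H8. E2f3 was below wild type in both knockout lines at each day, with H8 lowest at day 0, and did not pass (day 8 log2 difference -0.95 ± 0.28 SE, edgeR adjusted p = 0.0842). E2f1 ran from 18.4 to 38.2 TPM and was above wild type in both knockout lines at each day. Cdc25a, the phosphatase that activates CDK2, ran from 51.6 to 74.7 TPM and was below wild type in both at each day; neither passed in any of the 10 comparisons.

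In TMM-normalised CPM, the replication genes were lower in wild type at day 8 than in either knockout line for 12 of 14 genes, the exceptions being Rrm1 and Tyms, which were above both. On the TPM scale Mcm4 and Rrm2 were not among them, as H8 lay just below wild type there. Over all genes above 0 in the 3 libraries, 43.2% had both lines above wild type at that day and 42.3% had both below. At day 4, again in normalised CPM, the order was the other way for 11 of 14, with both lines below wild type (37.6% of all genes; 42.5% above), and 1 gene, Cdc6, above in both. At day 0 both lines were above for 7 genes and below for 3 (37.3% and 38.2% of all genes). The median log2 difference between knockout and wild type at day 8 was 0.42 over the 14 genes, beside 0.08 over all genes tested, and at day 4 it was -0.21 beside 0.07.

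Promoter sequences are shown for 3 subunits of the MCM helicase, Mcm5 and Mcm7, which passed at day 8, and Mcm6, which did not. They are the 250 bases before the start site from RefSeq (GRCm38.p6, the assembly of the mm10 build), read 5′ to 3′ on the gene's strand, with matches to an E2F motif or a CHR motif in capitals. The E2F motif was searched as TTTCCCGC, TTTGGCGC, TTTCGCGC or TTTGCCGC and the CHR (cell cycle genes homology region) motif as TTTGAA or TTCGAA, on both strands.
Mcm5 (chr8:75109259-75109508, plus strand): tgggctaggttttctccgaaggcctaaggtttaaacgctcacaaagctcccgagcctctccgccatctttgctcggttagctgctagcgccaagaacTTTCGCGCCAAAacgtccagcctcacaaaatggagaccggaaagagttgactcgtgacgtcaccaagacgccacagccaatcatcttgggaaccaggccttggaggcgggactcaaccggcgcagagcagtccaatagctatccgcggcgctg
Mcm6 (chr1:128359706-128359955, minus strand): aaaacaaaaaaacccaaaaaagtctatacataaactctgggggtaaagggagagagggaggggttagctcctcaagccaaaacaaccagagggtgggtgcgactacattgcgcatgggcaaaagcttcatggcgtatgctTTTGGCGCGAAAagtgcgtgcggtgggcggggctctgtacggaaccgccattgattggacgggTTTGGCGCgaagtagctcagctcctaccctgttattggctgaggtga
Mcm7 (chr5:138171884-138172133, minus strand): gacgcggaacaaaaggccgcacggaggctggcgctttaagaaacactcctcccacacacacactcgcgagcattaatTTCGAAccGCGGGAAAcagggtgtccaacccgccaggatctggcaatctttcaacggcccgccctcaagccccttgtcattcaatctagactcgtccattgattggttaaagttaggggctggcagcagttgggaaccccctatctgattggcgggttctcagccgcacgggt
Mcm5 held 2 E2F matches that overlap on opposite strands, starting 153 and 149 bases before the start. Mcm6 held an overlapping pair starting at 110 and 106 bases and a further match at 47 bases. The Mcm7 sequence is that of 1 of 2 start sites in the table and held an E2F match at 165 bases, near a CHR match at 173 bases; a second E2F match lies 17 bases after the start, outside the part shown, and the window of the other start held neither motif. Windows (250 bases before to 50 after a start) were found for 41 of the 50 genes. At least 1 E2F match was in a window of 6 of 12 S phase genes, 4 of 7 G1/S genes, 2 of 8 G1 genes and 1 of 14 mitotic genes, and in 2.60% of the 27025 genes with a window. Median GC was 59.0% in the windows of these genes and 52.7% in all windows, and a match is only a match of letters.

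The 6 subunits of the replicative helicase were not equal in their day 8 gap. Mcm5 measured 284, 232 and 131 TPM across the wild-type days 0, 4 and 8, 327, 208 and 225 TPM in G6 and 289, 198 and 208 TPM in H8. TPM of Mcm7 over day 0, 4 and 8 was 391, 401 and 285 in wild type, 341, 363 and 415 in G6 and 337, 358 and 388 in H8. For both genes wild type at day 8 was the lowest of the 9 libraries. Both knockout lines lay above it at that day, as they did for 43.2% of all genes above 0 in the 3 libraries. The knockout was 1.79-fold higher for Mcm5 (log2 difference 0.84 ± 0.16 SE, edgeR adjusted p = 0.0327) and 1.62-fold higher for Mcm7 (log2 difference 0.70 ± 0.15 SE, edgeR adjusted p = 0.0438). The Mcm7 call was lost with DESeq2 size factors, on log2(TPM + 1) and on log2(TPM + 0.1). Mcm2 was at 152 TPM in wild type against 240 and 209 in G6 and H8, and Mcm3 at 150 against 218 and 205, with differences that did not pass (Mcm2 log2 difference 0.69 ± 0.17 SE, edgeR adjusted p = 0.0549; Mcm3 log2 difference 0.64 ± 0.17 SE, edgeR adjusted p = 0.0626). Mcm4 and Mcm6 were nearly level, at 170 against 172 and 161 TPM for Mcm4 and at 203 against 212 and 208 TPM for Mcm6.

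As a ratio, mean TPM of Mcm2, Mcm3, Mcm5 and Mcm7 over mean TPM of Mcm4 and Mcm6 was 1.23, 1.39 and 0.961 in wild type at day 0, 4 and 8. It was 1.40, 1.46 and 1.43 in G6 and 1.45, 1.47 and 1.37 in H8. Wild type at day 8 was the 1 library with a ratio below 1. The subunits were grouped for this ratio after their values were seen, so it carries no test.

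**Figure D3:**
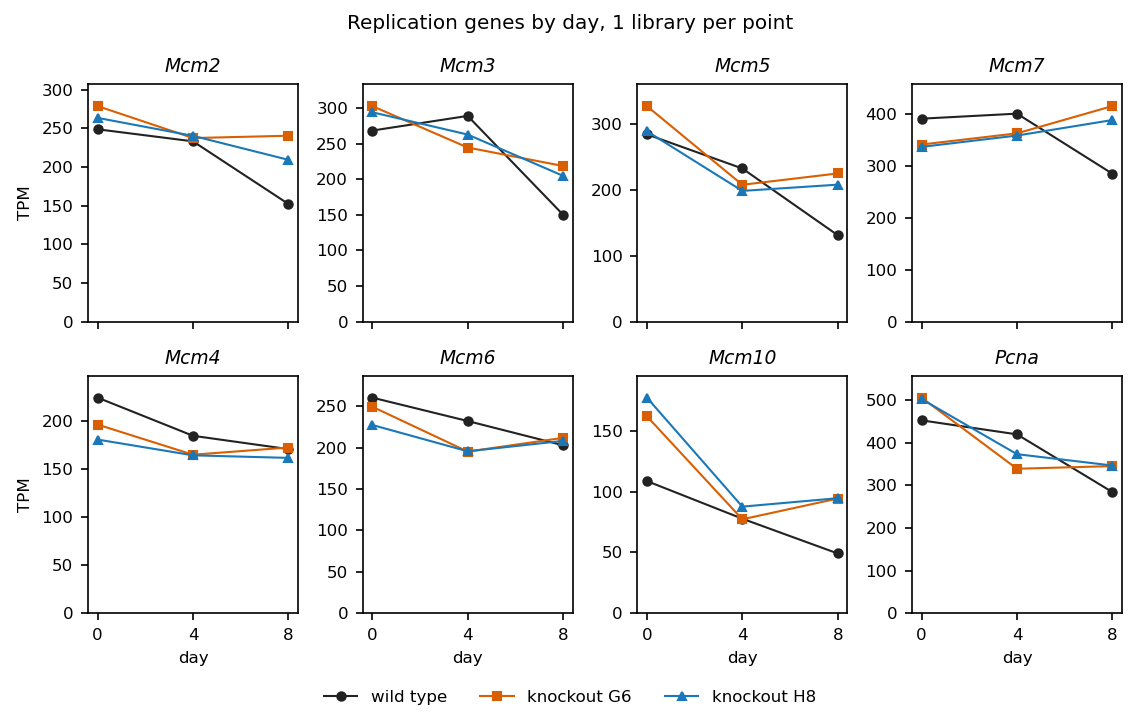
TPM (y axis, from 0) against day (x axis) for 6 MCM helicase subunits, Mcm10 and Pcna, 1 library per point, with lines joining libraries of 1 line. In wild type Mcm2, Mcm3, Mcm5, Mcm7, Mcm10 and Pcna drop from day 4 to day 8 to below both knockout lines, while Mcm4 and Mcm6 end within 161 to 212 TPM in all 3 lines.

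Mcm10, which helps to activate the helicase, was at 49.0 TPM in wild type at day 8 against 94.3 in G6 and 94.5 in H8 (log2 difference 0.96 ± 0.23 SE, edgeR adjusted p = 0.0532). Pcna, the sliding clamp, was at 284 against 345 and 347 TPM. The licensing factor Cdt1 was at 39.1 against 56.9 and 49.6 TPM, and its inhibitor geminin followed. Gmnn measured 154, 137 and 102 TPM across the wild-type days 0, 4 and 8, 231, 112 and 132 TPM in G6 and 166, 117 and 114 TPM in H8. Gmnn fell in the knockout from day 0 to day 4 (log2 difference -0.81 ± 0.19 SE, edgeR adjusted p = 0.0393), a call lost under total count scaling, and so did Mcm5 (log2 difference -0.60 ± 0.13 SE, edgeR adjusted p = 0.0302). The nucleotide synthesis genes did not share one pattern: at day 8 Rrm2 was at 176 TPM in wild type against 221 and 174, Rrm1 at 143 against 118 and 109, and Tyms at 70.8 against 48.3 and 46.4. None of these 3 passed in the 10 comparisons; with the replicate block Rrm2 passed as lower at day 4 than at day 0 in the knockout (log2 difference -0.67, edgeR adjusted p = 0.0282).

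In normalised CPM the mitotic genes also sat below the knockout lines in wild type at day 8, for 13 of 17 genes (43.2% of all genes), with Mki67 and Foxm1 above both lines and Ccna2 and Cdk1 between them. On the TPM scale Kif11 (70.5 TPM in wild type, 79.1 in G6 and 68.5 in H8) and Foxm1 also lay between them. None of the 17 passed at day 8 with edgeR, against 9.87% of all genes. An unadjusted p under 0.05 was found for 7, beside 7354 of the 24794 genes. DESeq2 called Birc5, Bub1b, Ccnb1, Ccnb2 and Cdc20, and the share of all genes that it called at day 8 is not given here. The median log2 difference at day 8 was 0.49 over the 17 genes beside 0.08 over all genes. At day 4 both lines were below wild type for 11 (37.6% of all genes) and above for 3 (42.5% of all genes), with a median of -0.22 beside 0.07. For day 0 the counts were 7 above in both and 3 below in both, beside 37.3% and 38.2% of all genes.

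Promoters of 3 mitotic genes are shown for comparison with the MCM genes: Bub1b, which fell in the knockout between day 0 and day 4, Ccnb2, and Cdk1, the 1 mitotic gene with an E2F match. Source, strand and capitals are as for the MCM genes.
Bub1b (chr2:118597961-118598210, plus strand): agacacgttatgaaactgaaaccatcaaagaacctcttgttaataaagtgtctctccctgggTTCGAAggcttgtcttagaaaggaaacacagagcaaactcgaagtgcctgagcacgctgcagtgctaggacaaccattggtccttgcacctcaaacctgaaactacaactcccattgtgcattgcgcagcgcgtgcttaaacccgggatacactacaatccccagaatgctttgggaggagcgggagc
Ccnb2 (chr9:70421555-70421804, minus strand): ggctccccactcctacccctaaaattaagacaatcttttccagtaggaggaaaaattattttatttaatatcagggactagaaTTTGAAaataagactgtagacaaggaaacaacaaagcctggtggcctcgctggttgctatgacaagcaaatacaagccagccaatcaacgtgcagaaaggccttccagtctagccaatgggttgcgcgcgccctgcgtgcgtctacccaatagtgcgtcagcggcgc
Cdk1 (chr10:69352913-69353162, minus strand): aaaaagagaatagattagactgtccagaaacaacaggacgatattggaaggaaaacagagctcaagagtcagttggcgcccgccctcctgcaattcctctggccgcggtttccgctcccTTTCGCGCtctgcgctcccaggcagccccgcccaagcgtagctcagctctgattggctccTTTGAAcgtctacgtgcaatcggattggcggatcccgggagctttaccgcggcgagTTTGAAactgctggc
Bub1b held a CHR match starting 188 bases before the start and a second one 41 bases after it, outside the part shown. Ccnb2 held one at 167 bases before and another 5 bases after the start, and Cdk1 held 2, at 71 and 15 bases before it, beside an E2F match at 131 bases. A CHR match was in a window of 12 of 14 mitotic genes, 2 of 12 S phase genes, 2 of 7 G1/S genes and 2 of 8 G1 genes, and in 21.7% of all genes with a window. The CCAAT motif (letters CCAAT, both strands) was in 13 of 14 mitotic and 9 of 12 S phase genes and in 41.1% of all genes.

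Ccnb1 measured 259, 225 and 138 TPM across the wild-type days 0, 4 and 8, 326, 178 and 217 TPM in G6 and 337, 194 and 193 TPM in H8. Ccnb1, the mitotic cyclin B1, fell in the knockout from day 0 to day 4 (log2 difference -0.79 ± 0.14 SE, edgeR adjusted p = 0.0189) and from day 0 to day 8 (log2 difference -0.64 ± 0.14 SE, edgeR adjusted p = 0.0475); the second did not pass under total count scaling, without the filter or with the replicate block (adjusted p = 0.0560 with edgeR). TPM of Bub1b over day 0, 4 and 8 was 120, 110 and 77.9 in wild type, 241, 113 and 131 in G6 and 186, 130 and 119 in H8. Bub1b, which encodes the spindle checkpoint kinase BubR1, fell from day 0 to day 4 (log2 difference -0.77 ± 0.16 SE, edgeR adjusted p = 0.0313). For both genes wild type at day 8 was the lowest of the 9 libraries.

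Bub1 measured 161, 118 and 92.6 TPM across the wild-type days 0, 4 and 8, 148, 180 and 141 TPM in G6 and 154, 157 and 118 TPM in H8. TPM of Cdc25b over day 0, 4 and 8 was 19.1, 10.9 and 8.96 in wild type, 20.2, 23.0 and 14.1 in G6 and 26.9, 22.0 and 15.3 in H8. Bub1, a checkpoint kinase gene, and Cdc25b, the phosphatase gene for mitotic entry, were above wild type in both knockout lines at day 4 and day 8. Cdc20, the activator of the anaphase-promoting complex, had the largest difference of the group at day 8, with 137 TPM in wild type against 246 in G6 and 301 in H8 (log2 difference 1.12 ± 0.29 SE, edgeR adjusted p = 0.0625). Birc5 (survivin) was at 132 against 196 and 187 TPM, and Ccnb2 at 94.5 against 169 and 157.

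Cdk1 measured 116, 156 and 128 TPM across the wild-type days 0, 4 and 8, 79.0, 52.7 and 84.5 TPM in G6 and 108, 109 and 140 TPM in H8. Cdk1 went another way from its cyclin: G6 was below H8 at each day and below wild type at each day. In the line comparison it had the largest positive difference of the 50 genes (H8 minus G6 log2 difference 0.77 ± 0.14 SE, edgeR adjusted p = 0.225). TPM of Aurkb over day 0, 4 and 8 was 40.6, 59.9 and 42.9 in wild type, 78.3, 53.5 and 56.8 in G6 and 42.1, 54.1 and 54.8 in H8. Aurkb, the Aurora B kinase gene, was highest in G6 at day 0 and otherwise within 40.6 to 59.9 TPM. Mki67, the gene of the proliferation marker Ki-67, ran from 66.5 to 89.7 TPM, and Top2a from 382 to 518 TPM, the narrowest relative ranges that are given here for mitotic genes.

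**Figure D4:**
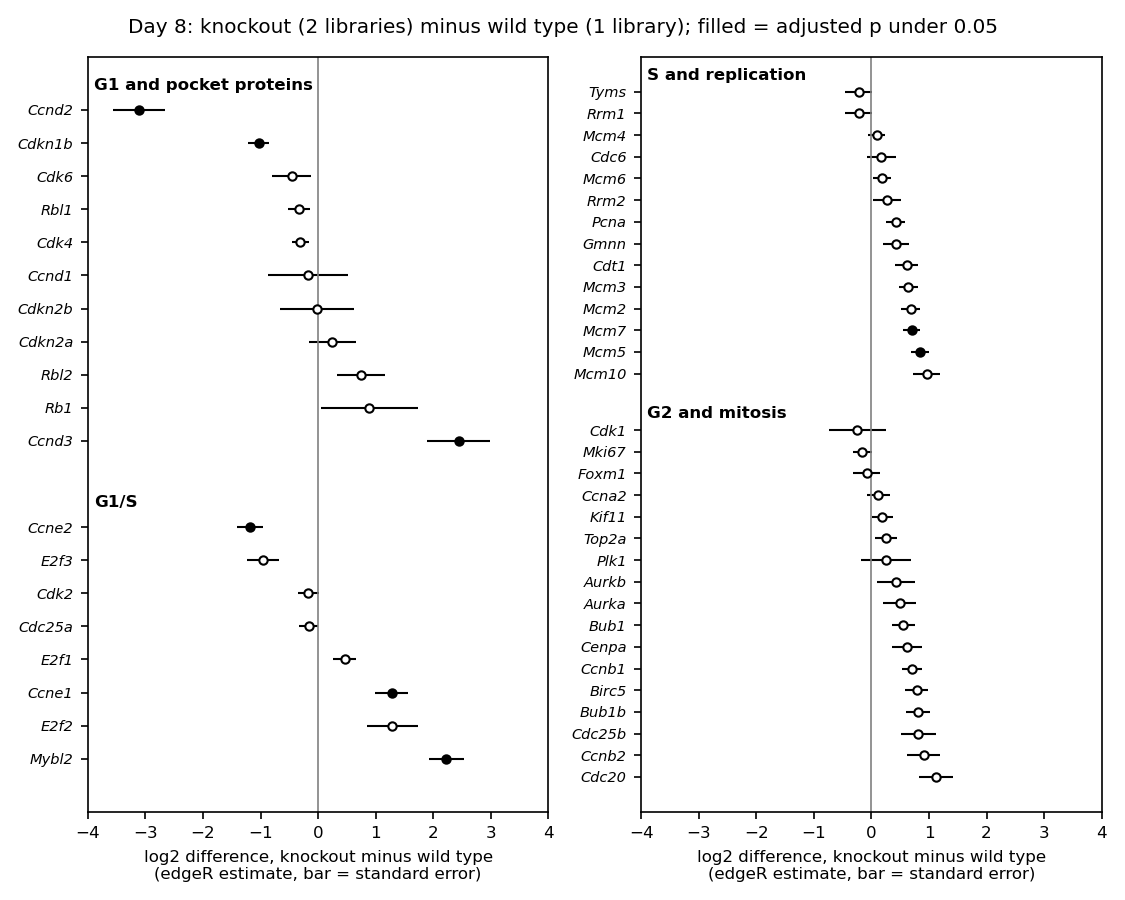
Knockout minus wild type at day 8 for the 50 genes, as the edgeR log2 difference (x axis) with its standard error (bars), grouped by role and sorted within the group. Filled points passed the threshold of 0.05, which were Ccnd2, Cdkn1b, Ccnd3, Ccne2, Ccne1, Mybl2, Mcm7 and Mcm5, while S phase and mitotic points mostly lie right of 0.

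Other genes of the same pathways, from lists of 25 G1 and checkpoint, 45 replication and 43 mitotic genes tested, gave 7 calls at day 8 with edgeR, a smaller share than the 9.87% of all genes. Of the G1 and checkpoint genes 2 were lower in the knockout, the repressor-type E2F genes E2f5 (log2 difference -1.09, edgeR adjusted p = 0.0288) and E2f6 (-1.20, edgeR adjusted p = 0.0232), at 75.3 and 69.3 TPM in wild type against 25.8 to 34.7 TPM in the knockout libraries. Of the replication genes 1 was higher, Pold1, the catalytic subunit of DNA polymerase delta, at 42.6 TPM in wild type against 75.7 in G6 and 68.2 in H8. Of the mitotic genes 4 were higher: Ccnf, Espl1 (separase), Anln (anillin) and Ccna1, the last at no more than 2.61 TPM in any library. The median log2 difference was -0.02 over the G1 and checkpoint list, 0.37 over the replication list and 0.38 over the mitotic list, beside 0.08 over all genes.

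Markers of cell types differed between the same day 8 libraries. The 5 embryonic stem cell markers (Pou5f1, Sox2, Nanog, Zfp42 and Esrrb) were all higher in the knockout at day 8 and summed to 2613 TPM in G6 and 2589 in H8 against 409 in wild type. Their sum was already higher in the knockout at day 0, at 3917 and 3916 TPM against 2491. At day 4 it was 1621 and 1790 TPM against 1442. Sox2, Zfp42 and Esrrb were above wild type in both lines at day 4. Nanog was below it in both, at 216 TPM in wild type against 144 in G6 and 214 in H8. For Pou5f1 wild type lay between the lines, at 1060 TPM against 1025 and 1161. At day 8 cardiomyocyte markers (5 genes, 3 of them called lower) summed to 118 TPM in wild type against 4.87 in G6 and 7.90 in H8. Endothelial markers (3 genes, 2 called lower) summed to 88.3 against 62.4 and 54.0. Yolk sac and visceral endoderm markers (3 genes, 1 called lower) summed to 224 against 14.4 and 32.2. Pecam1 of the endothelial list went the other way, at 21.1 TPM in wild type against 49.0 and 41.6. Cdh5 was at 35.2 against 0.591 and 0.918, and Tek at 32.0 against 12.8 and 11.6. Actn2 of the cardiomyocyte list also went the other way, at 1.43 against 1.95 and 3.08. Embryonic blood markers (4 genes, 2 tested, none called) summed to 526 TPM in wild type against 0.465 and 4.28, with Hba-x, Hbb-bh1 and Hbb-y at 0 in G6 and Hbb-y at 0 in H8. The 4 fibroblast markers gave no call. Neuron markers (3 genes, none called) summed to 31.9 against 19.1 and 28.2 TPM. Most of that sum was Tubb3, at 31.5 against 16.2 and 27.1, and Dcx was at 0.0812 against 0.0382 and 0.0264. Neurod1 went the other way, at 0.343 against 2.85 and 1.08. At day 4 the primitive streak markers (T, Mixl1 and Eomes) summed to 1362 TPM in wild type against 51.7 and 116. The part of these differences in the cell cycle values was not tested, and in bulk RNA fewer cells of a type and less RNA per cell cannot be told apart.

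For wild type, with a single library a day, the course carries no test. From day 4 to day 8 all 17 mitotic genes and 13 of the 14 S phase genes were lower at the later day, with median log2 steps of -0.56 and -0.66, beside 0.02 over all genes above 0 in both libraries. The mitotic steps ran from -1.09 (Cdc20) to -0.24 (Kif11). In the same interval in G6, 13 of 14 S phase and 13 of 17 mitotic genes were higher at day 8 (medians 0.16 and 0.13). In H8, 9 of 14 and 13 of 17 were lower (medians -0.09 and -0.17). From day 0 to day 4 the wild-type medians were -0.10 for S phase and -0.06 for mitotic genes, while those of G6 were -0.38 and -0.45 and those of H8 -0.24 and -0.01.

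Whether the knockout step differed from the wild-type step was tested as an interaction with edgeR. From day 4 to day 8 none of the 50 genes passed, against 0.00% of all genes, and 18 had an unadjusted p under 0.05, beside 4041 of the 24794 genes. DESeq2 called 5 of the 50 and 1577 of all genes, and limma-voom none of either. The median difference of steps was 0.64 for the S phase genes and 0.66 for the mitotic genes, with 13 of 14 and 16 of 17 above 0, beside 0.01 over all genes. It was -0.59 for the G1 genes. The widest were Ccnd3 (log2 difference 3.78 ± 0.71 SE, edgeR adjusted p = 0.144), Ccnd2 (log2 difference -1.88 ± 0.66 SE, edgeR adjusted p = 0.259) and Cdkn2b (log2 difference -1.49 ± 0.92 SE, edgeR adjusted p = 0.478). From day 0 to day 4 none passed, against 0.504% of all genes (0.456% higher, 0.0484% lower), with 5 at an unadjusted p under 0.05 (4267 of all genes), 2 called by DESeq2 (1877 of all genes) and none by limma-voom, and the widest were Cdkn2b (log2 difference 2.98 ± 0.95 SE, edgeR adjusted p = 0.200) and Ccnd3 (log2 difference -2.30 ± 0.69 SE, edgeR adjusted p = 0.183). These tests share libraries with the comparisons within a day and are not independent of them.

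**Figure D5:**
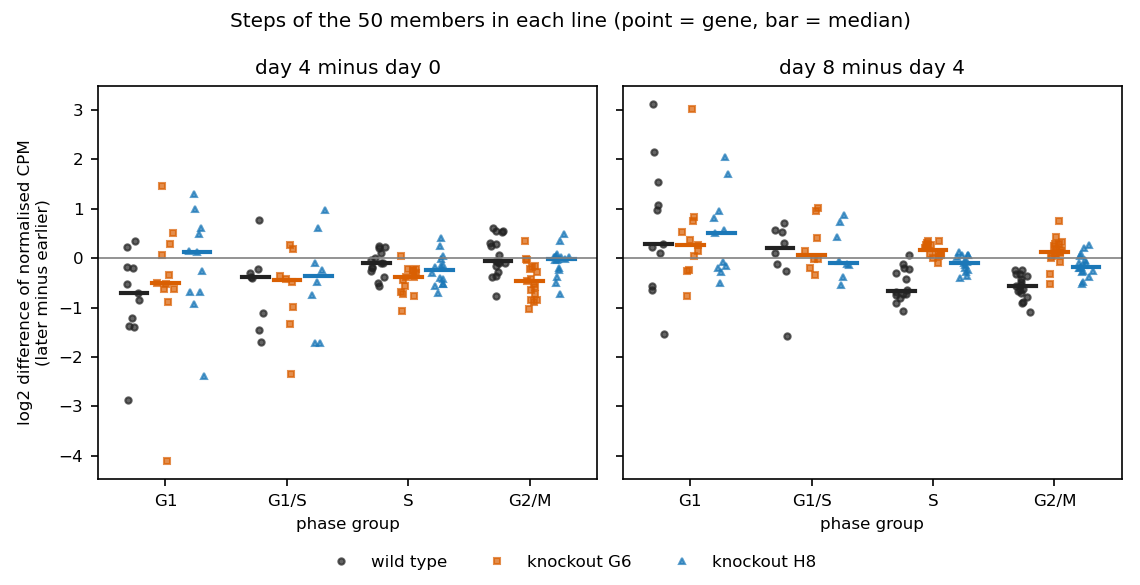
Step of each gene between neighbouring days in each line (y axis, log2 difference of TMM-normalised CPM, later minus earlier; point = gene, bar = median of the group), for the 4 role groups on the x axis. In the right panel the wild-type S phase and mitotic points lie almost all below 0, with medians of -0.66 and -0.56, while the medians of the knockout lines lie between -0.17 and 0.16.

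The knockout lines themselves differed. The median absolute difference between H8 and G6 over the 50 genes was 0.35 (log2) at day 0, and 0.15 at day 4 and at day 8, against 0.43, 0.26 and 0.28 over all genes. The widest difference between the lines was that of Ccnd1 at day 0 (H8 minus G6 -1.91), of Rb1 at day 4 (-1.55) and of Cdkn2b at day 8 (1.55). Fold differences in TPM and in normalised counts were close for most genes, and differed by over 0.5 (log2) in 3 of 150 gene-days: Cdk6 at day 0, Mcm10 at day 0 and Rb1 at day 8.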

How the data were processed

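Per the submitters' processing notes, HISAT2 2.0.5, StringTie 1.3.3b and the mm10 build were used; what each did, with which options and annotation, and whether counting was stranded are not given in the sources used here. The authors deposited, for each of 9 libraries, whole-number read counts per gene and TPM per gene. Entries without a gene name (259 per table, 0.0242% to 0.0398% of counts) were left out. A gene was tested if 2 or more libraries reached a CPM of 0.0791, equal to 10 counts in the library of median size; 24794 genes were.

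Counts were scaled by TMM and tested with edgeR 4.0.16 (R 4.3.3; quasi-likelihood F test, two-sided, Benjamini-Hochberg over all genes tested, threshold 0.05). A model holding 1 mean per group (6 groups) gave the comparisons within days, along the knockout course and between courses. The 2 knockout lines of a day supply its spread (residual df 3, prior df 3.12, biological coefficient of variation 0.348), and the lone wild-type library is assumed to vary like them. An additive model of day and genotype gave the comparison over all days (residual df 5, coefficient 0.494), and one of day and line on the 6 knockout libraries gave H8 minus G6 (residual df 2). In all, 10 comparisons were made. TPM were used to show levels and, with limma 3.58.1, as alternatives. The scripts were tested on simulated data.

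H8 minus G6 differences were correlated between days over 15732 genes (0.196 for day 0 with 4, 0.135 for 0 with 8, 0.367 for 4 with 8), and the names mark the same line, so a replicate block with line as a term was fitted as well. Alternatives were DESeq2 1.42.0, its size factors, total count scaling, no filter, limma-voom, log2(TPM + 1), log2(TPM + 0.1), and leaving out each library or day 0. The genes and lists were chosen with earlier results of these data known. Named genes are the 50, with values per library for those past the threshold, the 3 highest and 3 lowest in each comparison, D-type cyclins and inhibitors; other genes come from fixed pathway lists, at most 4 per direction and comparison. Of 44 listed mitotic genes 43 were found. RefSeq promoter windows matched 41 of the 50 by symbol.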

Additional observations from a re-analysis of the deposited data

How the results depend on the processing

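Each comparison's count of cell cycle genes past the threshold was recomputed under every alternative, and no call changed direction. Methods also differ in how many of all genes they call, and those totals are not listed beside the counts below. The counts therefore show dependence on processing only and do not set the cell cycle genes against other genes. DESeq2 gave 5 at day 0, 18 at day 8, 9 over all days, 3 and 12 for the knockout steps from day 4 to 8 and from day 0 to 8, 2 and 5 for the interactions of day 0 to 4 and day 4 to 8, and 2 between lines. With limma-voom there were 1 at day 0, 16 at day 8, 4 over all days and 1 for the knockout step from day 4 to 8. Total count scaling gave 1 at day 0, 13 at day 8 and 1 for the knockout from day 0 to 8; no filter gave 2 over all days and 1 for the knockout from day 0 to 8. On log2(TPM + 1) there were 0 over all days and 6 for the knockout from day 0 to 8, and on log2(TPM + 0.1) 2 and 5. Without the day 0 libraries there were 16 at day 8, 0 over all days and 1 between lines. The replicate block gave 3 at day 0; elsewhere it kept counts within 1.5 times, lost the 3 calls named beside the results, and added Cdc20 and Mcm10 at day 8, Rb1 and Rrm2 for the knockout from day 0 to 4 and E2f2 from day 0 to 8; it changed no other call. Leaving out 1 library gave 0 to 2 at day 0, 0 to 16 at day 8, 0 to 2 over all days, 1 to 9 for the knockout from day 0 to 4, 0 to 3 from day 0 to 8 and 0 to 1 between lines; a group left with 1 library is then assumed to vary like the others. The cause of these shifts was not tested. Precision is limited by 1 wild-type library a day, and the day 0 knockout libraries are the shallowest.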

Other observations

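Some genes of the cell cycle lists outside the 50 had a course of their own in the knockout. Cdkn1a, which encodes the inhibitor p21, rose from day 0 to day 4 (log2 difference 0.74, edgeR adjusted p = 0.0213) and from day 0 to day 8 (0.96, edgeR adjusted p = 0.0151), from 69.3 TPM (G6) and 63.4 TPM (H8) at day 0 to 125 and 143 TPM at day 8. The wild-type libraries held 94.2, 142 and 102 TPM in day order. Pold2, the second subunit of DNA polymerase delta, fell from day 0 to day 4 (-1.07, edgeR adjusted p = 0.0198) and to day 8 (-1.22, edgeR adjusted p = 0.0201), from 179 TPM (G6) and 143 TPM (H8) to 65.3 and 72.1 TPM at day 8. Gins4, a subunit of the helicase partner GINS, the clamp loader subunit Rfc2 and the kinetochore gene Spc24 also fell from day 0 to day 4 (-0.64, -0.62 and -0.86). E2f6 was the 1 gene of the 3 lists called over all days, at 45.9, 51.2 and 69.3 TPM in wild type and between 22.6 and 29.5 TPM in the knockout (-1.06, edgeR adjusted p = 0.0233). Ccnb3, at 0 in both day 0 knockout libraries, was called higher at day 4, with 0.197 TPM in G6 and 0.0686 in H8.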
